A study of Mus musculus with 8 samples.

Results

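Mitochondrial ribosomal proteins were examined in brown adipose tissue (BAT) of wild-type (WT) and db/db mice. Members were every protein-coding gene whose symbol is Mrpl or Mrps followed by a digit, found by matching the Ensembl identifiers of the count table to GENCODE M21. The rule used names and no measured value, and it gave 78 genes of the 31053 in the table, 49 named for the large subunit (Mrpl) and 29 for the small subunit (Mrps). They lay on 17 chromosomes.

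Mitochondria carry their own ribosome, which translates the few messages of mitochondrial DNA (mtDNA), all of them core parts of the respiratory chain and ATP synthase. Its RNAs come from mtDNA, whereas its proteins are encoded in the nucleus, made in the cytosol and imported. Some of these proteins have a counterpart in the bacterial ribosome and others are found only in mitochondria. Brown adipocytes, which burn fuel for heat through the uncoupling protein Ucp1, are packed with mitochondria and depend on this machinery to build the respiratory chain.

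The 8 libraries came from BAT of 8-week-old mice, 4 WT and 4 db/db, all labelled as strain C57BL6/J. db/db mice are homozygous for a mutation of the leptin receptor gene Lepr in every cell, overeat and become obese and diabetic. Per the study's methods all mice were males sampled after a fast, WT mice came from Charles River and db/db mice (B6.BKS(D)-Leprdb/J) from Jackson. Its list of resources instead gives Jackson for both and another db/db stock, so the source of the WT mice and the db/db stock are uncertain. If the methods hold, genotype and source cannot be told apart. The list does not give the strain background of its db/db stock, so strain may also differ with genotype, against the label. The labels name the tissue as BAT and the cell type as stromal vascular fraction, which would lack mature adipocytes. Against that label, the summed level of 5 adipocyte markers was between 8773 and 19384 CPM in every library, and the libraries are treated here as whole BAT. CPM are counts brought to the same library total, which is here adjusted by the TMM factor of each library. The design text calls the samples biological replicates.

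Library totals lay between 2374079 and 2615009 counts for WT and between 2382722 and 3240074 for db/db. Marker lists of other cells also moved with genotype. Summed skeletal muscle markers (10 genes) were at 398 to 1441 CPM in WT and at 10771, 2957, 4738 and 2161 CPM in db/db 1 to 4. Macrophage markers (8 genes) were at 146 to 194 CPM against 668 to 1205 CPM, fibroblast markers (6 genes) at 600 to 741 CPM against 1134 to 2478 CPM, and brown adipocyte markers (6 genes) at 7206 to 8926 CPM against 2995 to 5522 CPM. Endothelial markers (6 genes) were at 259 to 328 CPM against 208 to 238 CPM. By edgeR, 10 of 10 muscle, 7 of 8 macrophage and 6 of 6 fibroblast markers were higher in db/db, 2 of 6 endothelial markers were lower, and 4 of 4 tested brown adipocyte markers were lower, Ucp1 among them. Of the 5 adipocyte markers 2 were higher, Plin1 (0.79, adjusted p = 0.000685) and Fabp4 (0.65, adjusted p = 0.0309), and the median of the list was 0.32, with sums of 8773 to 15639 CPM in WT and 14461 to 19384 CPM in db/db. In bulk tissue, fewer cells of a type and less RNA per cell cannot be told apart. The part these cell types have in the results that follow was not tested beyond 1 fit with the muscle markers as a covariate, which is given beside the counts.

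The first question was how many members differed between the genotypes. Of the 78, 75 passed the filter on low counts, 47 of the large and 28 of the small subunit. With the edgeR quasi-likelihood test and adjustment over all 9264 genes tested, 16 members were lower in db/db (21.3%), against 11.9% of all genes tested. A single member, Mrps6, was higher (1.33%), against 15.8% of all genes tested, and 58 members did not pass the threshold. Log2 fold changes of db/db over WT were below 0 in 59 of the 75, against 49.6% of all genes tested, and their median was -0.18, against 0.0066 over all genes. The members' median standard error was 0.17, against 0.24 over all genes tested, and their median level 55.0 against 19.3 CPM. Shares of calls depend on such precision, and no set of genes of like level was compared. The 16 falls ran from -1.02 to -0.38 on the log2 scale, which is a loss of 50.6% to 22.9% of the WT level, with adjusted p from 0.000241 to 0.0363. In 14 of these 16 the highest db/db library lay below the lowest WT library, and Mrps2 and Mrpl34 were the 2 whose genotypes overlapped. The same values chose the 16, so this is a description and no added support. Over all members, 19 had db/db libraries wholly below WT, against 12.7% of all genes tested, and 2 wholly above, Mrps6 and Mrpl54, against 15.3%.

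The number of calls depended on which libraries and covariates entered. Without db/db 1, the library with the most muscle marker counts, 11 members were lower (14.7%, against 10.3% of all genes in that fit), all of them among the 16. With the mean z-score of the 10 muscle markers as a covariate, 0 members were called by edgeR, while 1 lower and 1 higher member kept an unadjusted p under 0.05, Mrpl15 and Mrps6. That score did not overlap between the genotypes (at most -0.09 in WT and at least 0.02 in db/db), so the fit leaves little room to separate the 2 terms, and it called 606 genes in all where the fit on genotype alone called 2568. In it, 39 of the 75 members had a log2 fold change below 0, where the genotype fit gave 59, and the median of the 75 was -0.04 in place of -0.18. The 16 members called by the genotype fit, chosen by that outcome, had a median of -0.40 in place of -0.67 and a median standard error of 0.26 in place of 0.16.

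**Figure D1:**
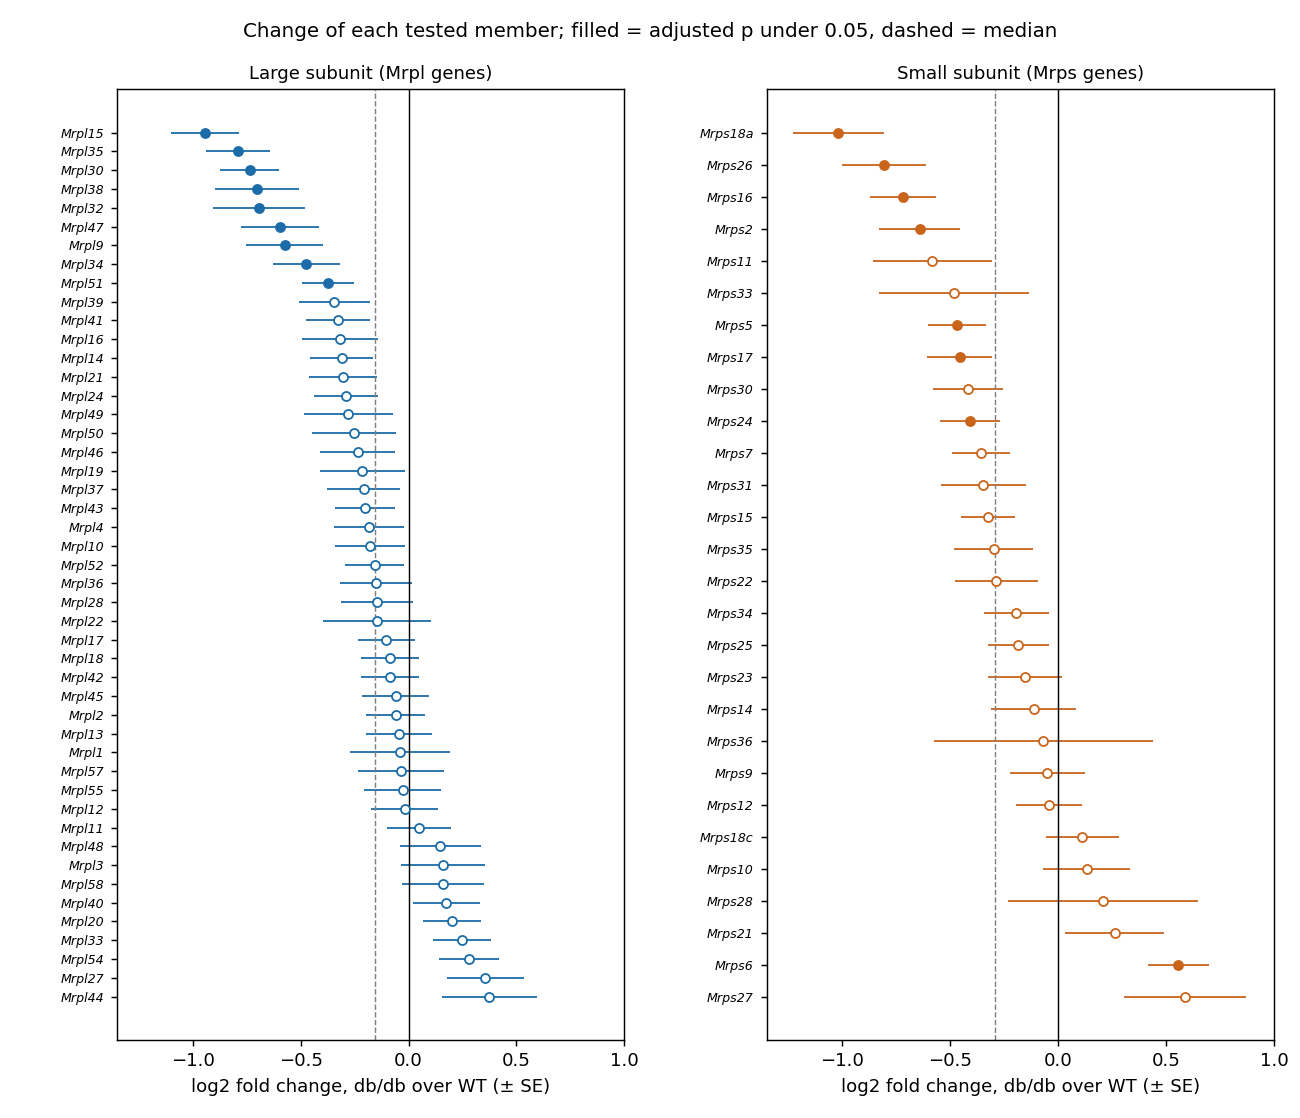
Log2 fold change of db/db over WT (horizontal axis) for each tested member, large subunit on the left and small subunit on the right, with the standard error as a bar. Filled points passed an adjusted p of 0.05 and the dashed line is the median of the subunit, -0.16 for the large and -0.29 for the small. Most points lie left of 0, with 16 filled points on the left and 1, Mrps6, on the right.

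The second question was whether the subunits differed. Members were lower in each. Of the large subunit, 9 of 47 were lower (19.1%) and 0 were higher with edgeR, with 0 also at an unadjusted p under 0.05, with DESeq2 and with limma-voom, against 11.9% lower and 15.8% higher of all genes tested. Their median log2 fold change was -0.16 and 37 were below 0, but the median was -0.10 without db/db 1 and 0.05 with the muscle covariate. Of the small subunit, 7 of 28 were lower (25%) and 1 was higher (3.57%), the median was -0.29 (-0.16 with the muscle covariate) and 22 were below 0. These shares and medians are descriptions, and the difference between the subunits was not tested.

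Some symbols do not give the place of the protein. Mrps30 and Mrps18a sit in the large subunit of the assembled mitochondrial ribosome, and Mrps36 is a part of the oxoglutarate dehydrogenase complex. Sorted by place, 10 of 49 large subunit members were lower (20.4%, against 11.9% of all genes tested) with a median of -0.18, and 6 of 25 small subunit members were lower (24%) with a median of -0.29. At places that have a counterpart in the bacterial ribosome 12 of 45 were lower (26.7%, median -0.15). At places found only in the mitochondrial ribosome 4 of 29 were lower (13.8%, median -0.21), a share near that of all genes tested. Mrps18a, though related to a bacterial protein, was counted with the second group by its place. Calls were spread over low and high members, with 8 lower among the 37 above the median level and 8 among the 38 at or below it.

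Summed over all members and scaled by TMM, the WT libraries held 5776, 5541, 5320 and 5723 CPM and the db/db libraries 4140, 4721, 4883 and 5292 CPM. All 4 db/db sums lay below all 4 WT sums, with db/db 4 close under WT 3 and db/db 1 farthest down. The means were 5590 ± 206 and 4759 ± 477 CPM (SD, n = 4), and the change of the mean was -14.9%. As a share of all counts, the members took between 0.541% and 0.601% in WT and between 0.445% and 0.499% in db/db. The 95% Wilson interval of the lowest WT share was 0.532% to 0.551% and that of the highest db/db share 0.491% to 0.507%, which covers counting error only.

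The large subunit sum was 3971 ± 159 CPM in WT and 3392 ± 352 CPM in db/db, and db/db 4 at 3784 CPM lay above WT 3 at 3756 CPM. For the small subunit the sums were 1619 ± 51.7 CPM and 1367 ± 131 CPM and did not overlap. The ratio of large to small subunit counts, in which the scaling of a library cancels, was 2.494, 2.491, 2.401 and 2.423 in WT and 2.416, 2.596, 2.407 and 2.508 in db/db. Its means, 2.45 ± 0.047 and 2.48 ± 0.089, differed by less than the spread between libraries. Sorted by place the ratio was 2.70 ± 0.045 in WT and 2.68 ± 0.106 in db/db, which also overlapped.

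**Figure D2:**
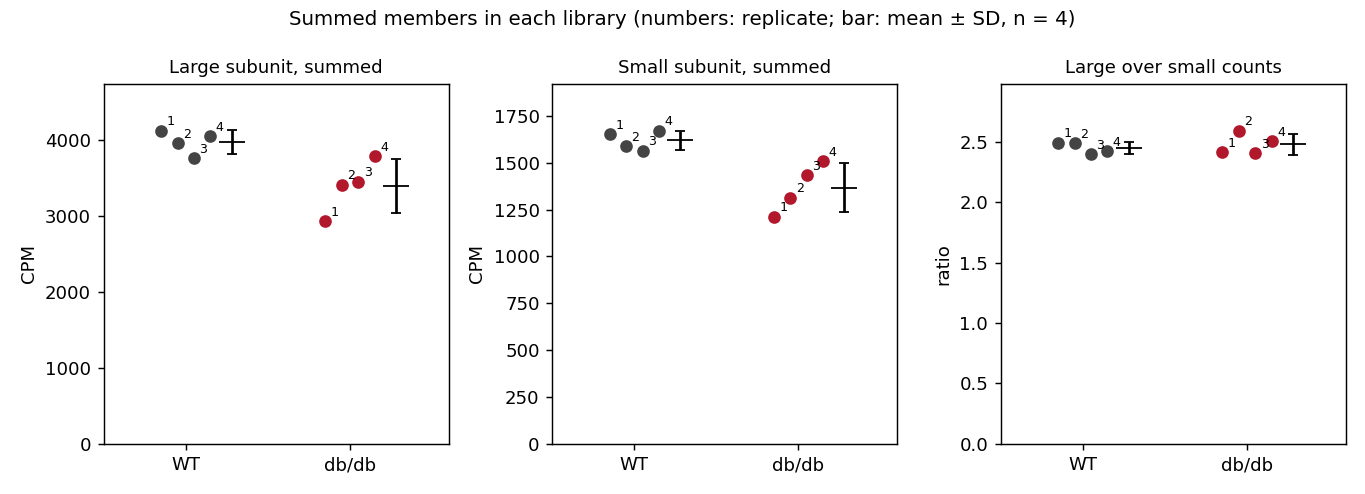
Summed CPM of the large subunit members (left), of the small subunit members (middle) and the ratio of their counts (right) in each library. Points are libraries with their replicate number and the bar is the mean with its SD (n = 4 per genotype). The sums are lower in db/db, with db/db 1 lowest at 2928 and 1212 CPM, and the ratio stays between 2.401 and 2.596 in all 8 libraries.

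The db/db libraries did not fall alike. The median log2 level of the 75 members against their WT mean was -0.38, -0.24, -0.21 and -0.03 in db/db 1 to 4, so that db/db 4 was near WT over the members as a whole. Of the 75 members, 32 had their lowest value of all 8 libraries in db/db 1. The 16 members that were lower with edgeR lay below their WT mean in every db/db library, with medians of -0.90, -0.54, -0.62 and -0.47 (values of the comparison that chose them, given as a description). The other 59 members had medians of -0.31, -0.13, -0.11 and 0.04. Muscle markers were highest and brown adipocyte markers lowest in db/db 1, and brown adipocyte markers highest in db/db 4. The part of either in this order was not tested.

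Among the members with the largest falls, 4 belong to the large subunit by both name and place and have a counterpart in the bacterial ribosome. Mrpl15 (chr1:4773206-4785739, minus strand, mm10) measured 189, 151, 129 and 163 CPM in WT and 61.4, 86.5, 89.1 and 92.3 CPM in db/db. Every db/db value was below every WT value, and the change was -0.94 (SE 0.16, edgeR adjusted p = 0.000241), the smallest adjusted p of the members. Mrpl35 (chr6:71812997-71826969, minus strand) measured 93.9, 101, 89.1 and 91.3 CPM in WT and 41.8, 53.4, 57.6 and 64.7 CPM in db/db. The genotypes were again apart, with a log2 fold change of -0.79 (SE 0.15, adjusted p = 0.000674).

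Mrpl30 (chr1:37890477-37898535, plus strand) measured 320.1, 283, 262 and 279.7 CPM in WT and 143, 171, 167 and 207 CPM in db/db. It fell in all 4 db/db libraries, db/db 1 being lowest, by 0.74 on the log2 scale (SE 0.14, adjusted p = 0.000604). Mrpl32 (chr13:14608184-14613165, minus strand), whose protein is trimmed by a protease of the inner membrane before it joins the ribosome, measured 22.7, 21.9, 26.3 and 28.4 CPM in WT and 14.1, 20.4, 12 and 14.5 CPM in db/db. Its highest db/db library, db/db 2, came nearest to the lowest WT library, and the change was -0.69 (SE 0.21, adjusted p = 0.022). This call was lost without WT 4 (adjusted p = 0.0636) and without db/db 3 (adjusted p = 0.0588).

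Mrpl38 (chr11:116131817-116138868, minus strand), a large subunit protein found only in mitochondria, measured 87, 63.7, 60.9 and 58.6 CPM in WT and 27.7, 48.7, 39.9 and 50.2 CPM in db/db. WT 1 was the highest and db/db 1 the lowest of the 8 libraries, and the change was -0.70 (SE 0.19, adjusted p = 0.0114). With the muscle covariate its estimate was 0.03, the only falling member to change sign in that fit. Mrps18a (chr17:46110986-46128910, plus strand), 1 of 3 relatives of a single bacterial protein, is named for the small subunit but sits in the large. It measured 36.4, 31.7, 47 and 41.2 CPM in WT and 13.2, 20.7, 18.2 and 25.3 CPM in db/db, and had the largest fall of all members, -1.02 (SE 0.21, adjusted p = 0.00143). It overlaps Rsph9 on the opposite strand, which had at most 9 counts in any library.

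Of the small subunit, Mrps16 (chr14:20389304-20393634, minus strand), with a bacterial counterpart, measured 132, 133, 126 and 149 CPM in WT and 64.7, 80.5, 77.1 and 106 CPM in db/db. The genotypes did not overlap, db/db 4 being the nearest to WT, and the change was -0.72 (SE 0.15, adjusted p = 0.00169). Mrps26 (chr2:130563742-130568695, plus strand), found only in mitochondria, measured 58.7, 49, 47.3 and 40.7 CPM in WT and 25.9, 21, 38.6 and 27.5 CPM in db/db. Here db/db 3 was the nearest to WT and db/db 2 the lowest, and the change was -0.80 (SE 0.19, adjusted p = 0.00469).

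The other 8 falling members changed less. Mrps2 fell from 38.7 ± 7.03 to 24.8 ± 3.38 CPM (-0.64, adjusted p = 0.0158), with WT 2 at 28.7 CPM inside the db/db range. Mrpl47 fell from 50.4 ± 2.26 to 33.6 ± 8.28 CPM (-0.59, adjusted p = 0.0197) and Mrpl9 from 34.5 ± 5 to 23.1 ± 2.46 CPM (-0.57, adjusted p = 0.0232). All 3 proteins have a counterpart in the bacterial ribosome. Mrps5 fell from 123 ± 6.86 to 89.4 ± 11.5 CPM (-0.47, adjusted p = 0.0145), Mrps17 from 62.3 ± 7.2 to 45.4 ± 4.42 CPM (-0.46, adjusted p = 0.0308) and Mrps24 from 117 ± 14.4 to 88.1 ± 10 CPM (-0.41, adjusted p = 0.0363). Mrpl51, found only in mitochondria, had the smallest fall, from 191 ± 8.24 to 148 ± 9.2 CPM (-0.38, adjusted p = 0.0267). The remaining member is Mrpl34, described with the members of highest CPM.

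Besides that of Mrpl32, given above, the calls of 6 falls lay near the threshold and were lost when single libraries were left out. Mrpl47 was not called without db/db 1 (adjusted p = 0.0596), and Mrpl9 without WT 3 (0.0654) or db/db 4 (0.0614). Mrpl51 lost its call without WT 3 (0.051), WT 4 (0.0544), db/db 1 (0.0559) or db/db 3 (0.0505). Mrps17 lost it without WT 2 (0.0751), WT 4 (0.0883), db/db 1 (0.0738) or db/db 2 (0.0707), and when 10 counts were asked of every sample (0.0519). Mrps24 lost it without WT 1 (0.101), WT 2 (0.0574), WT 4 (0.0545), db/db 1 (0.0978) or db/db 3 (0.0685), with the replicate number as a block (0.057), and when 10 counts were asked of every sample (0.0585). Mrpl34 lost it without WT 1 (0.0802), WT 2 (0.0741), WT 4 (0.057), db/db 1 (0.0655) or db/db 2 (0.0571). The falls themselves stayed close in size in these fits, with log2 fold changes of -0.39 to -0.34 for Mrpl51 (-0.38 with all libraries), -0.43 to -0.40 for Mrps17 (-0.46), -0.44 to -0.34 for Mrps24 (-0.41), -0.49 to -0.37 for Mrpl34 (-0.47), -0.52 to -0.50 for Mrpl9 (-0.57) and -0.46 for Mrpl47 (-0.59).

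**Figure D3:**
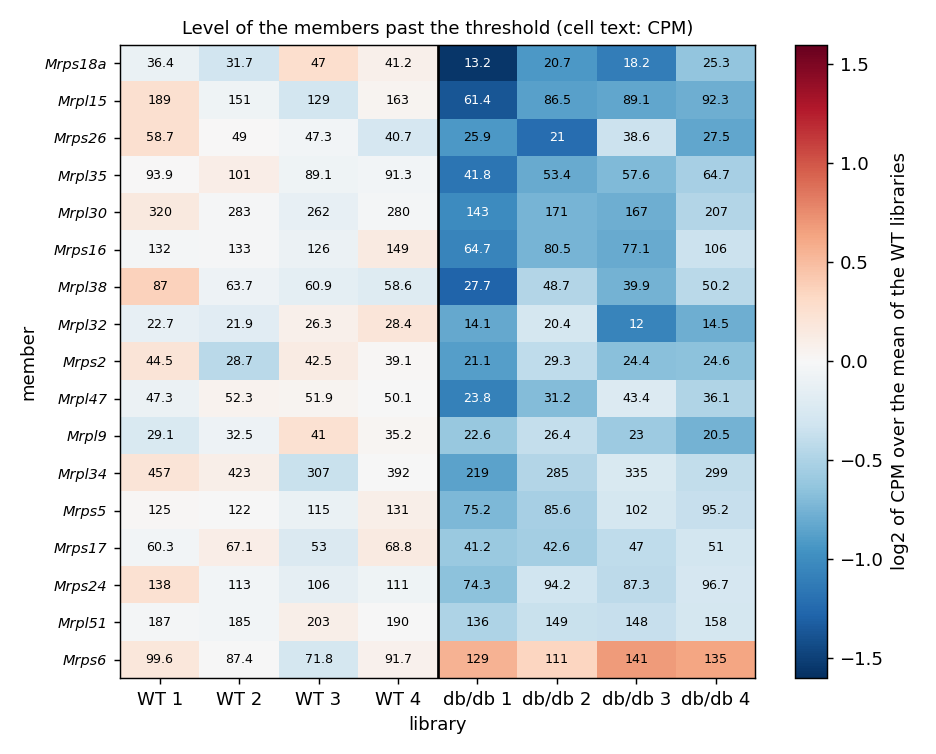
Level of each member with an adjusted p under 0.05 (rows) in each library (columns), coloured by the log2 of its CPM over the mean of the WT libraries and with the CPM written in the cell. The 16 falling members are blue across the 4 db/db columns, darkest for most in db/db 1, and Mrps6 in the last row is red across them.

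Mrps6 (chr16:92058270-92112227, plus strand), with a bacterial counterpart in the small subunit, was the exception. It measured 99.6, 87.4, 71.8 and 91.7 CPM in WT and 129, 111, 141 and 135 CPM in db/db. All db/db values were above all WT values, and it rose by 0.56 on the log2 scale (SE 0.14, adjusted p = 0.00625). Its gene model overlaps Slc5a3, a transporter of myo-inositol, on the same strand, which rose from 14.96 to 27.04 CPM (0.87, SE 0.26, adjusted p = 0.0171). How reads from the shared stretch were counted is not given in the sources used here, and the rise of Mrps6 is uncertain for that reason.

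Overlap touched other members too. Of the 78, 42 overlap another annotated gene, and 9 of the 35 tested without such an overlap were lower (25.7%), and 7 of the 40 with one (17.5%), where 11.9% of all genes tested were lower. The difference between these shares was not tested. Mrpl47 overlaps Ndufb5, a complex I subunit, on the opposite strand, which was itself lower (-0.51, adjusted p = 0.0124). Mrps24 overlaps Urgcp on the same strand, which was lower too (-0.62, adjusted p = 0.0319). The sources do not give the strand setting of the counts, and these 2 falls are uncertain. Mrpl9 overlaps Oaz3, which had at most 4 counts.

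The members with the highest mean CPM of each subunit did not move alike. Gene length was not taken into account, so CPM are not compared between genes. Mrpl34, with a bacterial counterpart in the large subunit, measured 457, 423, 307 and 392 CPM in WT and 219, 285, 335 and 299 CPM in db/db. WT 3 was below db/db 3, so the genotypes overlapped, and the change was -0.47 (SE 0.15, adjusted p = 0.0292). Mrpl12, which forms the flexible stalk that recruits translation factors, measured 216, 213, 163 and 229.6 CPM in WT and 171, 165, 229 and 246 CPM in db/db. The ranges lay over each other and the change was -0.02 (95% interval -0.35 to 0.31). In the small subunit, Mrps15 measured 134, 125, 109 and 123 CPM in WT and 99.3, 97, 99.7 and 96.3 CPM in db/db. Its genotypes were apart, but its adjusted p was 0.0627 and it was not called (-0.32, interval -0.59 to -0.06). It was called without WT 3 (adjusted p = 0.0345) and with upper quartile scaling (0.0458).

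Members with singular roles were looked at next. Mrpl11, at the base of the stalk, measured 74.5, 74.7, 62 and 72.2 CPM in WT and 56.9, 79.5, 75.4 and 81.8 CPM in db/db (change 0.05, interval -0.26 to 0.36). Mrps12, near the decoding site, measured 91.1, 80.2, 77.4 and 98.1 CPM in WT and 67.7, 78.9, 87.3 and 103 CPM in db/db (change -0.04, interval -0.36 to 0.28). In both the genotypes overlapped, and the intervals do not hold a fall as large as that of Mrpl15. Mrpl58, a peptidyl-tRNA hydrolase that frees stalled ribosomes, measured 46.1, 48.5, 39.1 and 42 CPM in WT and 43.9, 48.4, 35 and 68.8 CPM in db/db. Its change was 0.16 (interval -0.24 to 0.56), with db/db 4 the highest and db/db 3 the lowest of the 8 libraries.

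Mrps30, in the large subunit by place, measured 62.3, 64.6, 84.2 and 53.5 CPM in WT and 45.4, 48.4, 56.3 and 48.7 CPM in db/db. The ranges met, with WT 4 below db/db 3, and its adjusted p was 0.0623 (-0.42, interval -0.76 to -0.08), or 0.0377 without WT 4, 0.0492 with upper quartile scaling and 0.0434 when every gene with 1 count was kept. Mrpl41, a large subunit protein found only in mitochondria, measured 55.4, 54.9, 67.6 and 67.1 CPM in WT and 48.4, 56, 44.8 and 45.8 CPM in db/db. It was not called either (adjusted p = 0.114, change -0.33, interval -0.64 to -0.01), and db/db 2 lay inside the WT range. Mrps36, of the oxoglutarate dehydrogenase complex, measured 2.43, 8.02, 7.14 and 4.24 CPM in WT and 1.8, 9.54, 2.22 and 7.07 CPM in db/db, and its interval of -1.14 to 1.001 is too wide to place it.

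The 3 relatives of 1 bacterial protein occupy separate places in the ribosome. Mrps18c measured 37.2, 43, 52.2 and 47.5 CPM in WT and 37.9, 56.3, 51.4 and 49.5 CPM in db/db. Its genotypes overlapped (change 0.11, interval -0.24 to 0.47), whereas Mrps18a, as given above, fell. Mrps18b was close to the limit of detection and was not tested, with 0, 0, 1 and 0 counts in WT and 2 counts in each db/db library. Mrpl53 and Mrpl23 were also not tested. Mrpl53 had 0, 0, 2 and 0 counts in WT and 0, 3, 0 and 0 in db/db, and Mrpl23 had 10, 4, 8 and 9 counts in WT and 11, 10, 10 and 2 in db/db. These 3 were below the filter. In the fit that kept every gene with 1 count none of them was called, with log2 fold changes of 2.33 (SE 1.49, adjusted p = 0.298) for Mrps18b, 0.26 (SE 1.51, adjusted p = 0.932) for Mrpl53 and -0.16 (SE 0.58, adjusted p = 0.879) for Mrpl23, errors too wide to place them.

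Among the 58 tested members that were not called, 29 had a 95% interval that reached below -0.50, so that a fall of that size lies within the error of these libraries. Of the uncalled members, 5 had all db/db libraries below all WT libraries, namely Mrps7, Mrps15, Mrpl14, Mrpl21 and Mrpl43. These 5 are among the 19 of 75 tested members with that pattern, where 12.7% of all genes tested had it. The share over uncalled genes alone was not taken.

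Other proteins of the same ribosome carry other symbols. Dap3, a small subunit protein that binds GTP, measured 66, 62.5, 58.6 and 80.2 CPM in WT and 35.8, 42.3, 43.9 and 50.6 CPM in db/db. Its genotypes did not overlap and it fell by 0.63 on the log2 scale (SE 0.16, adjusted p = 0.00635). This was 1 of 5 (20%) lower, against 11.9% of all genes tested. The other 4 were not called, with log2 fold changes of -0.44 for Ptcd3, -0.27 for Chchd1, -0.20 for Aurkaip1 and 0.03 for Gadd45gip1.

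Factors that build the ribosome or modify its RNA were lower in 2 (9.09%) and higher in 1 (4.55%) of 22 tested, against 11.9% and 15.8% of all genes tested, with a median of -0.25. Eral1, a chaperone of the small subunit RNA, fell from 22.3 ± 1.99 to 13.7 ± 3.35 CPM (-0.71, adjusted p = 0.0259). Mrm1, which methylates the large subunit RNA, fell from 17.6 ± 7.4 to 8.2 ± 2.53 CPM (-1.11, adjusted p = 0.0147), with WT 1 highest of all libraries, and was not called without WT 1 (0.0756). Its estimate was 0.09 with the muscle covariate. Trub2, a pseudouridine synthase, rose from 16.5 ± 6.14 to 28.5 ± 4.84 CPM (0.78, adjusted p = 0.0241). In Mrm1 and Trub2 no db/db library lay inside the WT range, yet Trub2 lost its call without WT 2 (0.0868), WT 4 (0.0801), db/db 1 (0.0582) or db/db 3 (0.0677), and Eral1 without WT 1 (0.054), WT 2 (0.062) or db/db 1 (0.0758).

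Translation factors were lower in 3 (18.8%, against 11.9% of all genes tested) and higher in 0 of 16 tested with edgeR, with a median of -0.10, and 2 were higher at an unadjusted p under 0.05 (DESeq2 and limma-voom also called 0 higher). The 3 were Tufm, the elongation factor that delivers tRNA (29.1 ± 9.91 to 18.5 ± 3.1 CPM, -0.64, adjusted p = 0.0471), Mtif3, an initiation factor (38.9 ± 4.17 to 25.7 ± 6.12 CPM, -0.61, adjusted p = 0.0231), and Guf1, a back-translocating elongation factor (29.5 ± 2.52 to 19.4 ± 3 CPM, -0.61, adjusted p = 0.0214). Lrpprc, which stabilises mtDNA-encoded messages, was at 457 ± 76.2 and 466 ± 126 CPM (0.03). Of 17 mitochondrial tRNA synthetases tested, Cars2 alone was lower (-0.67, adjusted p = 0.0465), a share of 5.88% against 11.9% of all genes tested, and the median was -0.12. All 4 calls failed without WT 2 (adjusted p = 0.217 for Tufm, 0.0531 for Mtif3, 0.0528 for Guf1 and 0.121 for Cars2). Without it the log2 fold change was -0.39 for Tufm, -0.59 for Mtif3, -0.59 for Guf1 and -0.59 for Cars2, so that of Tufm moved most. The calls of Tufm and Cars2 were lost also without any of 5 other libraries each. Mtif3 lost its call too without WT 3 (0.0542), db/db 2 (0.0619) or db/db 4 (0.0698), and Guf1 without db/db 1 (0.0527). Tufm was not called with limma-voom (0.0661), nor Cars2 with DESeq2 (0.0541) or scaling by library total (0.0559), and neither when 10 counts were asked of every sample (0.0664 and 0.0629).

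Genes of mtDNA transcription and upkeep and their coactivators were lower in 4 of 12 tested (33.3%, against 11.9% of all genes tested), with a median of -0.58. Ppargc1b, a coactivator of mitochondrial gene expression, measured 101, 91.6, 59 and 88.3 CPM in WT and 21.7, 38.5, 41.7 and 48 CPM in db/db. It had the lowest adjusted p of this list (-1.19, adjusted p = 0.000491), and its genotypes did not overlap. Its relative Ppargc1a fell by 0.79 (adjusted p = 0.0158), their partner receptor Esrra by 0.80 (adjusted p = 0.00491) and the RNA polymerase of mtDNA, Polrmt, by 0.69 (adjusted p = 0.0471). The call of Polrmt was lost with DESeq2 (0.0511), with limma-voom (0.0566), with scaling by library total (0.0507), when 10 counts were asked of every sample (0.0619) and without any of 6 of the 8 libraries. Tfam, which packages mtDNA, was not called (-0.50, adjusted p = 0.0964). Across the 5 lists from Dap3 to Tfam, 12 genes were called, and 6 without WT 2. Of all genes tested, 27.7% were called in either direction, and without WT 2 it was 2243 of 9655. No share over the pooled lists was taken. Without 1 library, Tfam was called (adjusted p = 0.0214 without WT 1) and Ppargc1a was not (0.0732 without WT 4).

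Counts of the messages that this ribosome reads, those encoded by mtDNA, went both ways. Of 11 tested, mt-Co3 (-0.53, adjusted p = 0.0183) and mt-Atp6 (-0.54, adjusted p = 0.0141) were lower, and mt-Nd5 (0.68, adjusted p = 0.0015) and mt-Co1 (0.39, adjusted p = 0.0451) were higher, 18.2% in each direction against 11.9% lower and 15.8% higher of all genes tested, with a median of -0.08. The call of mt-Co1 was lost without any of 7 of the 8 libraries (adjusted p from 0.0698 to 0.134), with RLE scaling (0.0502), with upper quartile scaling (0.0668) and when every gene with 1 count was kept (0.127), and that of mt-Co3 was lost without db/db 4 (0.053). With the muscle covariate, mt-Nd5 alone of these 4 was called. Mean WT levels were 51.6 CPM for mt-Co3 and 60.3 CPM for mt-Atp6, against 3036 for mt-Nd5 and 3458 for mt-Co1. In WT, mt-Cytb stood at 65148 and mt-Nd4 at 199394 CPM. How reads that match more than 1 place were counted is not given in the sources used here. The falls of mt-Co3 and mt-Atp6, far lower in counts, are uncertain for that reason. Together mtDNA-encoded genes took 31.9% to 34.0% of the counts in WT and 30.7%, 36.8%, 37.6% and 37.2% in db/db 1 to 4. The ribosomal RNAs of mtDNA were not analysed here.

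For comparison, 20 of 36 nuclear complex I subunits were lower (55.6%) and 0 higher with edgeR, at an unadjusted p under 0.05, with DESeq2 or with limma-voom, against 11.9% lower and 15.8% higher of all genes tested, and their median was -0.40. The 20 ran from -0.72 for Ndufs8 to -0.35 for Ndufa7. Of 81 cytosolic ribosomal proteins 0 were lower with edgeR, DESeq2 or limma-voom (3 with edgeR at an unadjusted p under 0.05), 6 were higher (7.41%, below the 15.8% of all genes tested) and the median was 0.14. The 6 were Rpl17 (0.54), Rpl34 (0.56), Rpl35 (0.73), Rps23 (0.57), Rps6 (0.86) and Rpl3l (3.36), the last a form of striated muscle. The members' median of -0.18 lay between the 2 groups. No test of the difference between these groups was made.

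**Figure D4:**
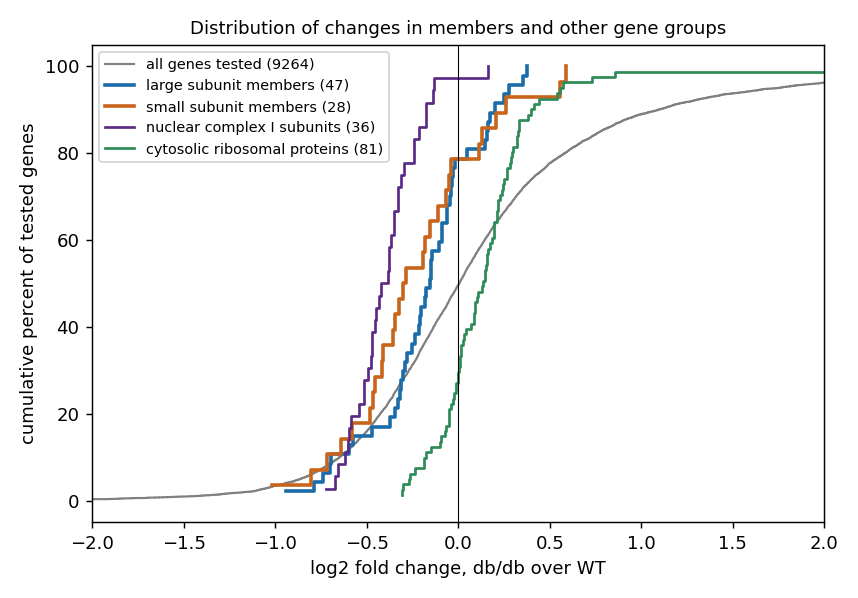
Cumulative percent of tested genes (vertical axis) against the log2 fold change of db/db over WT (horizontal axis, cut at both ends) for all genes tested, the large and small subunit members, nuclear complex I subunits and cytosolic ribosomal proteins. The curves of both subunits run left of the curve of cytosolic ribosomal proteins (median 0.14) and mostly right of that of complex I (median -0.40).

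Promoters were then read for letters that the members share. RefSeq windows on GRCm38.p6, from 250 bases before to 50 after the start of the gene, were matched to 69 members. In all, 11 letter patterns were counted on both strands, and they were chosen after the changes were known. The ETS pattern CCGGAAG was held by 26 of 69 members (37.7%), against 22.1% of tested genes with a window and 9.93% of all genes with one. The NRF1 pattern, GCGCA and GCGC with 1 base of any kind between them, was held by 13 (18.8%, against 12.8% and 5.19%), and the YY1 pattern AAGATGGCG by 8 (11.6%, against 4.20% and 1.64%). The ETS pattern ends with the AAG that opens the YY1 pattern, so a stretch can hold both. The ERR pattern TCAAGGTCA was in 0 windows of the members and in 0.285% of tested genes, and the SP1 pattern GGGGCGGGG was in 13 (18.8%), against 26.4% of tested genes.

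The other 6 patterns were variants of these and 2 further sites. CGGAAG was in 39 members (56.5%, against 38.0% of tested genes), AANATGGCG in 11 (15.9%, against 6.94%), CGCATGCGC in 7 (10.1%, against 4.46%) and the NRF1 pattern with T as its middle base in 3 (4.35%, against 2.5%). The CRE site TGACGTCA was in 2 (2.90%, against 3.85%) and the E box CACGTG in 5 (7.25%, against 12.1%). At least 1 of the NRF1, ETS and YY1 patterns was held by 41 of 69 members (59.4%), against 34.6% of tested genes and 15.1% of all genes with a window. It was in 10 of the 14 falling members with a window and in 29 of the 52 other tested members with one, a difference that was not tested.

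**Figure D5:**
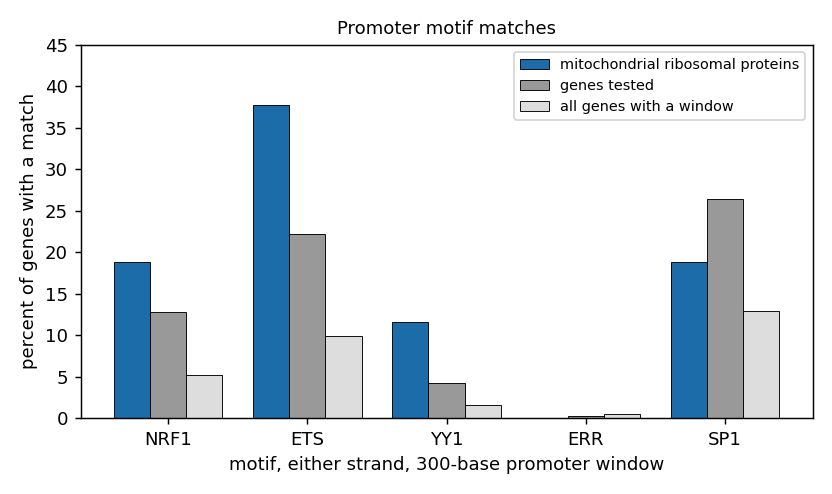
Percent of genes whose promoter window of 300 bases holds each of 5 letter patterns on either strand (vertical axis), for the members (69), tested genes (7359) and all genes with a window (27025). Members stand above both other groups for NRF1, ETS and YY1, are at 0 for ERR, and lie below the tested genes for SP1.

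The stretches that follow are shown to set falling members with and without a pattern beside a member that was not called and the member that rose. Each is 100 bases of RefSeq sequence on GRCm38.p6, read 5' to 3' on the strand of the gene, just upstream of annotated exons, with letters of the NRF1 or ETS pattern in capitals. The stretch of Mrps6 also holds the SP1 pattern, left in lower case. Mrps18a (chr17:46110886-46110985, plus strand) and Mrpl34 (chr8:71464816-71464915, plus strand) hold the ETS pattern (the window of Mrps18a also holds YY1, downstream of the stretch), and Mrpl9 (chr3:94443218-94443317, plus strand) holds the NRF1 pattern. Mrps17 (chr5:129715397-129715496, plus strand) fell and holds none of the NRF1, ETS and YY1 patterns in its window. Mrpl12 (chr11:120484486-120484585, plus strand) was not called and holds the NRF1 pattern, and Mrps6 (chr16:92058170-92058269, plus strand) rose and holds none of the 3 in its window.
Mrps18a: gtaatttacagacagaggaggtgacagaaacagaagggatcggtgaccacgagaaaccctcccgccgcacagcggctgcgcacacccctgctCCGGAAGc
Mrpl34: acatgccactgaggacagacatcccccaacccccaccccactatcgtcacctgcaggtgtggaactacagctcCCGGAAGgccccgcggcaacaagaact
Mrpl9: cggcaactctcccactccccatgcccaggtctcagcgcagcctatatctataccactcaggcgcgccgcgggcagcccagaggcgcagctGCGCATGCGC
Mrps17: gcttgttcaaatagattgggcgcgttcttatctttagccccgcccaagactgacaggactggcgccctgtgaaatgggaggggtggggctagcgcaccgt
Mrpl12: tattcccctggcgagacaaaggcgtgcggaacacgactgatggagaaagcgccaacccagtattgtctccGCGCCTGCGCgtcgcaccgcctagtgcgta
Mrps6: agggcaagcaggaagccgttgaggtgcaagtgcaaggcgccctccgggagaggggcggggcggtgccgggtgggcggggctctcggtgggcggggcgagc
Matches are letters in a window and say nothing of a factor at work there.

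Many members also sit head to head with another gene. Of the 78, 33 (42.3%) have the start of a protein-coding gene on the opposite strand within 1000 bases, against 10.8% of 21974 protein-coding genes. That set also holds genes too low to test, and the share over tested genes was not taken. Of the falling members, 4 have such a neighbour that was tested. Mrpl30 fell while Mitd1, 66 bases away, was at 0.23, and Mrpl32 fell while Psma2, a proteasome subunit 75 bases away, was at -0.05. The neighbour of Mrpl51, Ncapd2, was at -0.45 and was not called (adjusted p = 0.356), and that of Mrpl47, Ndufb5, was lower as given above. The reverse was seen at Mrpl36, which was not called (-0.15). The start of the complex I subunit Ndufs6, which fell by 0.66 (adjusted p = 0.00187), lies 29 bases away. The 2 genes overlap on opposite strands, with Ndufs6 at 669 and Mrpl36 at 49.8 CPM in WT. As the strand setting of the counts is not given, this contrast is uncertain. Of the 4 neighbours of falling members 1 was called, and whether the changes within a pair differed was not tested.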

How the data were processed

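Bulk mRNA of BAT from 4 WT and 4 db/db mice was sequenced as single-end reads through a commercial service. The authors deposited raw counts per Ensembl gene. The study's methods name bbduk, STAR and HTSeq-count on mm10 for this step, whereas the submitters' processing notes name Trimmomatic, HISAT2, DESeq2 and GRCm38 (mm10), so the aligner is uncertain. Strand use and the handling of molecular identifiers are not given in the sources used here, and PCR copies may be in the counts. A second deposited table of normalized values was not used. Genotype and replicate number were taken from the sample titles.

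Of 31053 genes, 31011 were matched to GENCODE M21, leaving 42 that took no more than 0.00213% of any library. Genes were filtered with filterByExpr (minimum count 10, minimum total 15), scaled by TMM and fitted on genotype alone. Tests were quasi-likelihood F tests (edgeR 4.0.16, R 4.3.3). P-values were adjusted by Benjamini-Hochberg over all 9264 genes tested, at 0.05. Standard errors were derived from the F statistic and 95% intervals from the t quantile at its degrees of freedom. DESeq2 1.42.0, limma-voom (limma 3.58.1), other scalings and filters, a replicate block, a muscle score and the removal of each library were alternatives. Same-numbered WT and db/db libraries did not deviate together (r of 0.038, 0.049, -0.078 and -0.014 across genes). The procedure was tested on simulated data.

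Members and pathway genes with an adjusted p under 0.05 were named (complex I subunits by count and range), and values per library were given for the 8 largest changes among called members in each direction, the 3 highest CPM of each subunit and a panel of roles. Members, lists and letter patterns were chosen with earlier results of these data known. Genes named as neighbours or overlapping genes, Mrpl54, Mrpl36, Mrps7, Mrpl14, Mrpl21 and Mrpl43 were chosen after their values were seen. P-values measure the spread between these samples, called biological replicates in the design text. Wilson intervals of shares cover counting error only. Promoters are from RefSeq (GRCm38.p6).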

Additional observations from a re-analysis of the deposited data

Results flagged for a closer look

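In db/db 1, mtDNA-encoded genes took 30.7% of the counts, whereas db/db 2, 3 and 4 were at 36.8% to 37.6%. The gap was 0.882 of the range of the group, above the Dixon limit for 4 samples. In all, 60 sets of 4 libraries were examined (the named members, the summed members, the subunit ratio, the median member level and the mtDNA share in each genotype), of which chance alone gives about 3.0, and this was the only 1 past the limit. The same library had the highest muscle marker sum (10771 CPM), the lowest brown adipocyte marker sum (2995 CPM) and the lowest member sum (4140 CPM). The cause was not tested. Without db/db 1, 11 members were lower (14.7%, against 10.3% of all genes in that fit) in place of 16 (21.3%, against 11.9%).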

How the results depend on the processing

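Members lower in db/db numbered 16 with DESeq2, limma-voom, TMMwsp, RLE and library total scaling, the same genes as with edgeR and TMM. That is 21.3% in each, against 11.7% to 12.4% of all genes in those fits. Upper quartile scaling gave 19 (25.3%, against 13.0% of all genes) and leaving out mtDNA-encoded genes 17 (22.7%, against 12.4%). Keeping every gene with 1 count gave 17 (21.8%, against 8.01%) and requiring 10 counts in every sample 14 (19.2%, against 12.2%). Leaving out each library gave 11 to 15, where 9.2% to 11.1% of all genes in those fits were lower. The number was lowest without db/db 1 (14.7%, against 10.3% of all genes), where the large subunit median was -0.10. Mrps6 was called higher in each of these fits. Of the 17 called members, 10 kept their call in every alternative but the muscle covariate. With the muscle score as a covariate, members called fell to 0 (0 lower, 0 in the large and 0 in the small subunit, 0 higher), the medians were 0.045 for the large and -0.16 for the small subunit, and 0 of the 12 genes of the 5 pathway lists were called. Mrpl38 (0.034) and Mrm1 (0.089) changed sign there. The score differed between the genotypes without overlap, so the 2 terms share most of their spread. The pathway lists gave 6 to 12 calls when single libraries were left out, with 6 without WT 2. All genes called in those fits numbered 2236 to 2483, where the fit with all libraries called 2568 of 9264. With the replicate number as a block, 15 members were lower, Mrps24 being lost, and the pathway lists gave 14 calls. The numbers do not pair the samples, and no other member call changed with the block. The log2 difference of the large to small ratio between genotypes was 0.02, and -0.01 to 0.05 over the alternatives. Between 2374079 and 3240074 counts per library limit the precision, and 3 members were too low to test.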
